A study of Homo sapiens with 36 samples.

Results

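The MYC, MAX and MXD network is represented here by 8 of the 13119 genes that the array annotation names, MYC, MYCN, MAX, MXD1, MXD4, MXI1, MNT and MLX, and every probe set annotated to them was taken, whatever its values. They came to 19 of the 22215 probe sets tested on Affymetrix expression arrays, 5 for MAX, 4 for MLX, 3 each for MYCN and MXD4, and 1 for each of the other genes. The 3 MXD4 probe sets are annotated to MXD4 together with the microRNA gene MIR4800. A gene is spoken for by its brightest probe set, judged by mean log2 signal across the arrays, and its other probe sets are given beside it. Levels are MAS5 signals, a linear intensity. They are not compared between probe sets as amounts of RNA, because each binds its target with its own strength. Percentiles only place a probe set on the array.

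All 36 arrays measured RNA of U2OS ER-HA-E2F1 cells, a human osteosarcoma line made by retroviral infection and puromycin selection to carry E2F1, a transcription factor of cell cycle entry, fused to an estrogen receptor domain that 4-hydroxytamoxifen (OHT) switches on. Every culture was transfected with an siRNA, starved of serum from 18 h later for 24 h, and then harvested or given OHT in serum-free medium. Control cells received 1 of 2 negative control siRNAs, from Dharmacon or from Sigma, and knockdown cells 1 of 2 siRNAs against NFYB, from Ambion or from Dharmacon. Each of the 4 siRNAs was combined with 0, 4 or 8 h of 80 nM OHT, with 3 biological replicates per condition and hence 6 arrays per arm and time. No cells without OHT were sampled at 4 or 8 h, so E2F1 activation, OHT itself and the further hours without serum cannot be told apart. The study used the design to ask which E2F1 responses need NFYB, a subunit of the CCAAT-binding factor NF-Y.

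MYC and MYCN are basic helix-loop-helix leucine zipper proteins that bind DNA at the E-box as dimers with MAX and mostly raise transcription of genes for growth, ribosome production and metabolism. The MXD proteins (MXD1, MXD4 and MXI1) and MNT compete for the same partner, and their dimers with MAX bring the SIN3 corepressor and histone deacetylases to E-boxes. MLX is a MAX-like partner that pairs with MXD1, MXD4 and MNT and with the nutrient-sensing Mondo proteins. In many cell types MYC dominates in growing cells and the MXD proteins and MNT in resting or differentiating ones.

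The stretches before the transcription starts are shown for 4 genes, because E2F1 and NF-Y are the factors the cultures changed. Each had a match to a searched motif and a brightest probe set that was not near the bottom of the array. MXD1 had matches too but stood at percentile 3.82 by mean log2 signal and is not shown. Stretches were looked up for 7 of the 8 genes. The letters searched, on both strands, were the CCAAT box of NF-Y (CCAAT), 2 spellings of the E2F site (TTTCGCGC and TTTGGCGC) and the E-box of the network itself (CACGTG). Each line gives the 250 bases before the start of the gene, 5′ to 3′ on the strand of the gene, from RefSeq on GRCh38.p14, in lower case with matches in capitals (a CCAAT box on the other strand reads ATTGG).
MYCN (chr2:15940300-15940549, + strand): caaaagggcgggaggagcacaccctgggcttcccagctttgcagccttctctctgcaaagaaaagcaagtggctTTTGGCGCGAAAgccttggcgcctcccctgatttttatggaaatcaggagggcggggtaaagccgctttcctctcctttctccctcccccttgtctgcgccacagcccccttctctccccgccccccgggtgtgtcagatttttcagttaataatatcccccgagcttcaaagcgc
MXD4 (chr4:2262110-2262359, - strand): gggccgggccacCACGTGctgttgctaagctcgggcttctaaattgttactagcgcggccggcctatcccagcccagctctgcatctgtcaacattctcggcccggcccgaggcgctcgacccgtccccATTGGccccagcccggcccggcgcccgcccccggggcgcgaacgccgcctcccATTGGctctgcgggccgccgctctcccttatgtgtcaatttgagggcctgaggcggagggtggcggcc
MNT (chr17:2401061-2401310, - strand): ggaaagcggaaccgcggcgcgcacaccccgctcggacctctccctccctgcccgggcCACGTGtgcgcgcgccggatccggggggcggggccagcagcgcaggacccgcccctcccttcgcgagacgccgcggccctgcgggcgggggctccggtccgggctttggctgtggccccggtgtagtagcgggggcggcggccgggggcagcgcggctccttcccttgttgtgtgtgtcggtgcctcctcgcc
MLX (chr17:42566850-42567099, + strand): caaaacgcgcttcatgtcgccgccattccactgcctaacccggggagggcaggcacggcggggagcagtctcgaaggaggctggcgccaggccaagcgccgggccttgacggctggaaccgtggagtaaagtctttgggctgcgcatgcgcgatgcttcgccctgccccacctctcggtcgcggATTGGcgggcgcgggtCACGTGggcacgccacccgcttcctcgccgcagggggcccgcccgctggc

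The MXD4 stretch held 2 CCAAT boxes, whose first bases lie 121 and 68 bases before the start, and an E-box at 238 bases. The MLX stretch held 1 CCAAT box at 66 bases and an E-box at 50 bases, and the MNT stretch an E-box at 193 bases. In the MYCN stretch the TTTGGCGC spelling at 176 bases overlapped a TTTCGCGC on the other strand at 172 bases. The MXD1 stretch held 2 CCAAT boxes, at 141 and 100 bases, and the stretches before the 2 MAX starts and the 3 MXI1 starts held none of these letters. Among all 35116 stretches of this length, 32% held CCAAT, 6.34% CACGTG, 0.55% TTTGGCGC and 0.439% TTTCGCGC. A match is a run of letters only and does not show that a factor binds there.

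The labels of the arrays held for the targeted gene. On the brightest NFYB probe set, signals at 0 h ran from 160.9 to 203.1 in control cells and from 53.9 to 81.7 in NFYB siRNA cells, and at 8 h from 579 to 717 against 74.1 to 187, with no overlap at any time. Array medians ran from 100.5 to 119.7, and replicate arrays of a condition correlated at 0.951 to 0.962. The mesenchymal genes VIM, FN1, SPARC, CDH2 and CD44 stood at percentiles 89.4 to 99.5 of all probe sets by mean log2 signal, while the osteoblast factor RUNX2 stood at 21.9. Of the epithelial genes EPCAM stood at 67.4, and CDH1, KRT5 and KRT14 at 18.4 to 33.2. Defining markers of leukocytes (CD14, CD3D and PTPRC) and of endothelium (CDH5, PECAM1, TEK and VWF) had median signals of 2.48 to 46.4.

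By the same ranking, MXI1 stood at percentile 93.0, MAX at 89.0, MYC at 86.5, MLX at 82.9, MNT at 77.8, MXD4 at 61.9, MYCN at 44.5 and MXD1 at 3.82. This order is of probe set signals and does not rank the genes by amount of RNA. The file holds no detection calls, so MXD1, whose median signal was 2.71, and the other MYCN probe sets, 209756_s_at and 211377_x_at, with medians of 2.96 and 2.36, can be described only as near the bottom of the array.

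**Figure D1:**
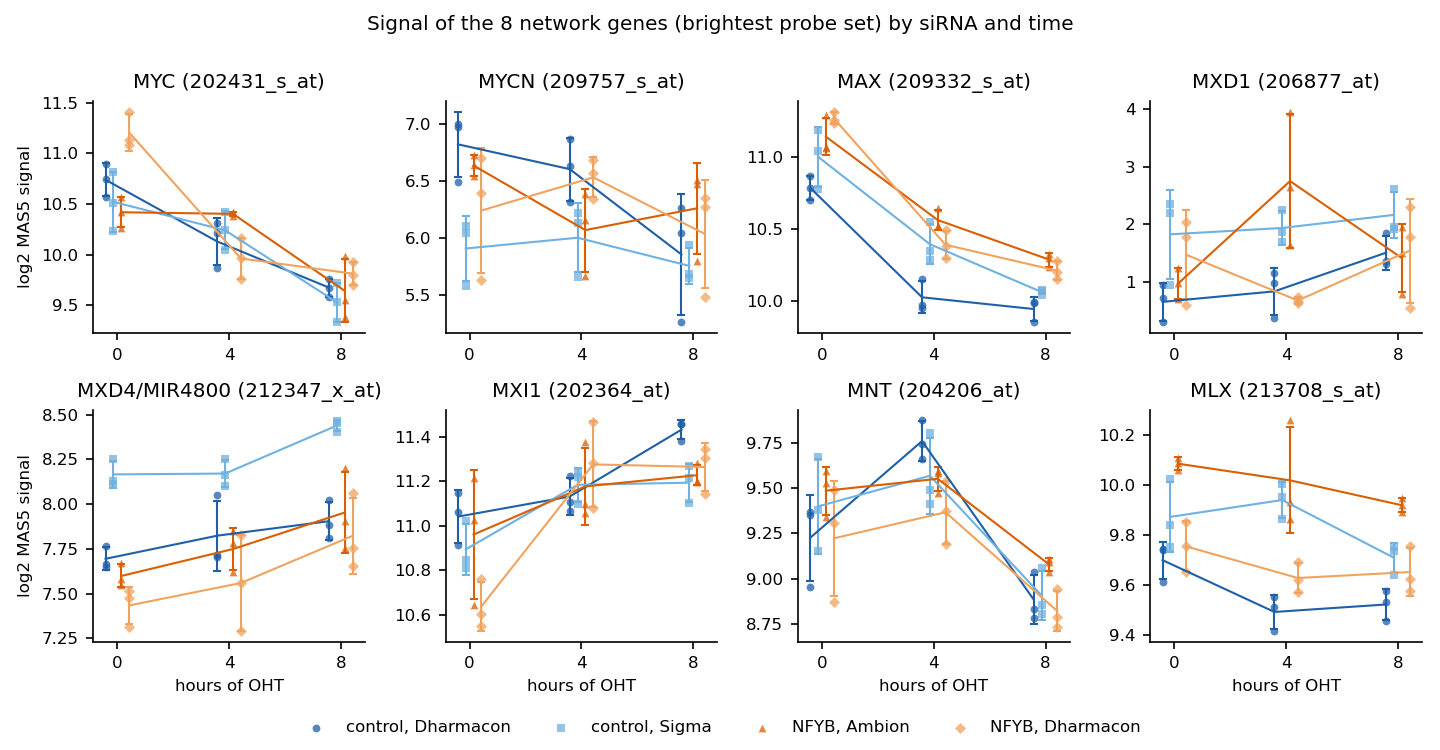
Log2 MAS5 signal of the brightest probe set of each of the 8 genes (vertical axis of each panel, own scale) against hours of OHT, for the 4 siRNAs; points are single arrays, lines and bars the mean and SD of 3 replicates, shifted sideways for legibility. With all 4 siRNAs the means of MYC and MAX are lower and that of MXI1 is higher at 8 h than at 0 h, and MNT is highest at 4 h and lowest at 8 h in control cells.

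In control cells, on the brightest probe sets, MYC and MAX were lower and MXI1 was higher after 8 h of OHT, while MNT first rose and then fell. In this comparison 7 of the 19 probe sets were called at an adjusted p under 0.05, 1 higher and 6 lower, where 49.9% of all probe sets were called (20.3% higher and 29.6% lower); their median log2 change was -0.17 against -0.10 over all probe sets tested. When the fit had 12 groups, siRNA by time, it called 11 members, where 53.7% of all probe sets were called. In bulk RNA, less RNA per cell and fewer cells that carry it cannot be told apart.

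MYC, the activating partner of the network, is measured by the single probe set 202431_s_at. Its signal in control cells had a lowest, median and highest value of 1204, 1620 and 1910 at 0 h, of 934, 1202 and 1373 at 4 h and of 646, 793 and 870 at 8 h (6 arrays each). All 6 arrays at 8 h lay below every array at 4 h and at 0 h, whereas 3 of the 6 at 4 h lay below every array at 0 h.

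The means were 1604 ± 258, 1173 ± 156 and 781 ± 80.8 (SD, n = 6). Against 0 h, MYC was 1.36-fold lower at 4 h (log2 change -0.45, SE 0.149, limma adjusted p = 0.0156) and 2.04-fold lower at 8 h (log2 change -1.03, 95% interval -1.33 to -0.72, adjusted p = 2.51e-07). From 4 h to 8 h it fell by 0.58 on the log2 scale (adjusted p = 0.00463). The 8 h call held with either control siRNA alone, at -1.06 with Dharmacon and -0.99 with Sigma. The 4 h call did not hold with Sigma alone (-0.28, adjusted p = 0.406) or without replicate 3 (-0.30, adjusted p = 0.261), and narrowly not without the Dharmacon control array of that number at 4 h (-0.38, adjusted p = 0.0502). The step from 4 h to 8 h did not hold with Dharmacon alone (-0.46, adjusted p = 0.221) or without replicate 2 (-0.56, adjusted p = 0.0578).

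MAX, the shared partner of MYC and its antagonists, was lower at both times. On 209332_s_at the lowest, median and highest signals in control cells were 1666, 1819 and 2339 at 0 h, 989, 1193 and 1499 at 4 h, and 921, 1036 and 1076 at 8 h. No array at 4 h or 8 h reached the lowest at 0 h.

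MAX on this probe set was 1.61-fold lower at 4 h (log2 change -0.69, SE 0.0842, adjusted p = 1.36e-08) and 1.86-fold lower at 8 h (log2 change -0.89, SE 0.0842, adjusted p = 1.35e-11). The further step of -0.21 from 4 h to 8 h did not pass the test (adjusted p = 0.0883). MAX 209331_s_at fell by 0.66 at 4 h and by 0.94 at 8 h, and 210734_x_at by 0.74 at both times, all called, although the last was lost with Dharmacon alone (adjusted p = 0.0752 at 4 h and 0.0533 at 8 h). The dimmer 214108_at had log2 changes of 0.42 and 0.33 with no call, and 208403_x_at -0.14 and -0.40 with no call. The 5 MAX probe sets therefore did not give 1 answer, although the 3 brightest pointed the same way.

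MXI1, an MXD family repressor, was the only member that the pooled fit called higher at 8 h in control cells. Its signals on 202364_at ran from 1796 over a median of 2005 to 2269 at 0 h, from 2143 over 2293 to 2411 at 4 h, and from 2196 over 2566 to 2811 at 8 h. At 8 h 5 of 6 arrays lay above every array at 0 h. The rise was 1.27-fold (log2 change 0.34, SE 0.0895, adjusted p = 0.00129), while the 4 h value of 0.19 was not called (adjusted p = 0.0926). With Sigma alone the 8 h change was 0.30 and was not called (adjusted p = 0.0647).

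MNT, a widely expressed repressor that also pairs with MAX, moved both ways. On 204206_at the lowest, median and highest signals in control cells were 495, 658 and 815 at 0 h, 681, 834 and 940 at 4 h, and 439, 459 and 534 at 8 h. Every array at 8 h was below every array at 4 h, and 4 of the 6 were below every array at 0 h.

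MNT rose 1.28-fold at 4 h (log2 change 0.35, SE 0.109, adjusted p = 0.00891) and was 1.34-fold lower than at 0 h by 8 h (log2 change -0.42, SE 0.109, adjusted p = 0.00138). The step from 4 h to 8 h was a 1.71-fold fall (log2 change -0.77, SE 0.109, adjusted p = 2.19e-06). Among the 19 probe sets, MNT and MYC were the 2 that the pooled fit called between 4 h and 8 h, both lower. Of all probe sets 17.2% were called there, 10.1% lower. The 4 h rise rested on the Dharmacon control siRNA (0.54, adjusted p = 0.00585, against 0.17, adjusted p = 0.478, with Sigma) and was lost without replicate 1 (0.19, adjusted p = 0.178) or replicate 3 (0.37, adjusted p = 0.0629). The 8 h value was lost with Dharmacon alone (-0.34, adjusted p = 0.0656) and without replicate 2 (-0.29, adjusted p = 0.0961).

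At 4 h, 5 of the 19 probe sets were called in control cells, 1 higher and 4 lower, where 39.3% of all were (16.1% higher and 23.3% lower). They were MNT, MYC and 3 of the MAX probe sets.

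MLX gave a split answer. On its brightest probe set, 213708_s_at, control cells had 784, 860 and 1043 (lowest, median, highest) at 0 h and 704, 782 and 863 at 8 h. The log2 change of -0.17 was not called by the pooled fit (adjusted p = 0.202). On 217909_s_at the values were 481, 626 and 803 at 0 h and 340, 378 and 461 at 8 h, with no overlap and a called 1.57-fold fall (log2 change -0.66, SE 0.155, adjusted p = 0.000451). The 2 remaining MLX probe sets had changes of -0.20 (217910_x_at) and 0.29 (210752_s_at), neither called by the pooled fit. With the Dharmacon control siRNA alone, the fall on 217909_s_at was not called either (-0.48, adjusted p = 0.0645).

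MYCN, the relative of MYC best known from the nervous system and neuroblastoma, was not called by the pooled fit at any time on any of its 3 probe sets. On 209757_s_at control cells had 47.7, 79.2 and 128 at 0 h and 38.2, 56.2 and 76.5 at 8 h, ranges that overlap, and the log2 change of -0.56 had a 95% interval of -1.05 to -0.06 and an adjusted p of 0.055. This value differed by siRNA, at -0.97 with Dharmacon (adjusted p = 0.0141) and -0.15 with Sigma (adjusted p = 0.744).

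MXD1 on 206877_at had signals from 1.24 to 5.1 at 0 h and from 2.5 to 6.14 at 8 h in control cells, and its change of 0.59 had an interval of -0.43 to 1.62. MXD4 on 212347_x_at had 201, 248 and 305 at 0 h and 225, 300 and 353 at 8 h, with a log2 change of 0.24 (interval -0.03 to 0.51, adjusted p = 0.136). Its other probe sets had 0.21 and 0.19, also not called.

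**Figure D2:**
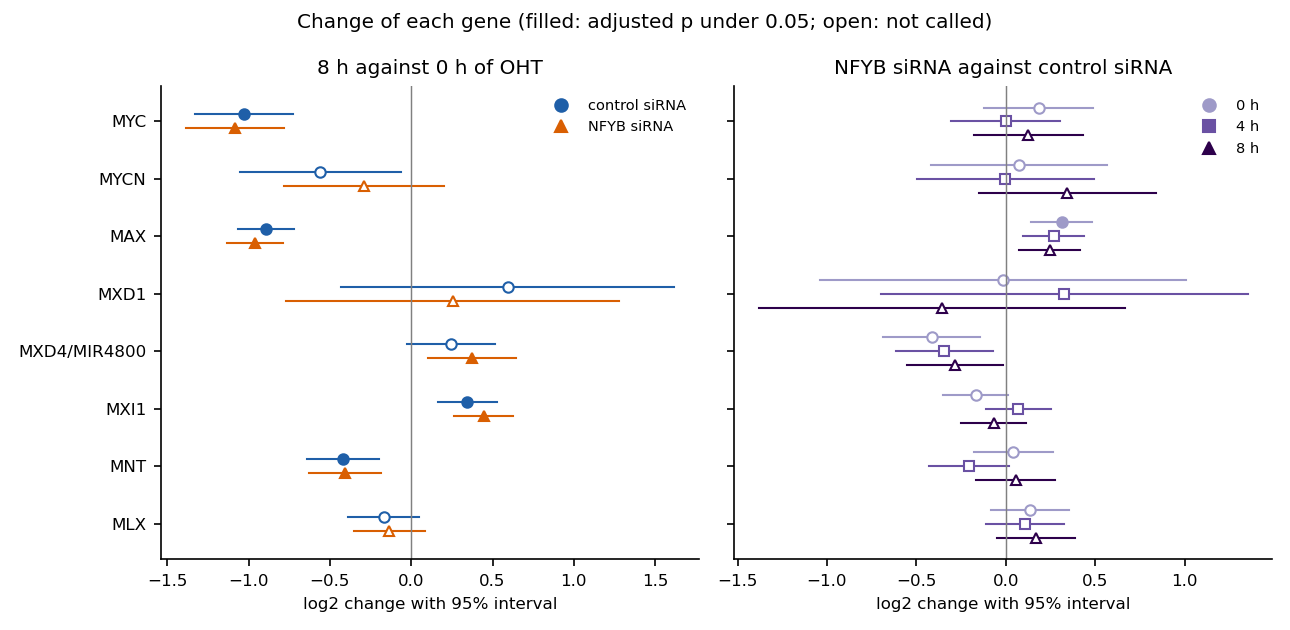
Log2 change with its 95% interval (horizontal axis) for the brightest probe set of each gene, 8 h against 0 h of OHT in each arm on the left, and knockdown cells against control cells at 0, 4 and 8 h on the right; filled symbols were called at an adjusted p under 0.05. On the left the intervals of the 2 arms overlap for every gene, and on the right MAX at 0 h is the 1 filled symbol.

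In NFYB siRNA cells, OHT for 8 h called 11 of the 19 probe sets, 4 higher and 7 lower, where 47.9% of all probe sets were called (18.5% higher and 29.4% lower); the members' median change was -0.27 against -0.15 over all.

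MYC in NFYB siRNA cells had a lowest, median and highest signal of 1233, 1842 and 2726 at 0 h, of 866, 1238 and 1373 at 4 h and of 670, 864 and 1017 at 8 h. All 6 arrays at 8 h lay below all 6 at 0 h. The fall was 2.12-fold (log2 change -1.08, SE 0.149, adjusted p = 9.34e-08), and its size differed between the siRNAs, at -0.78 with Ambion and -1.39 with Dharmacon, both called.

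MAX on 209332_s_at went from 2141, 2432 and 2554 at 0 h over 1256, 1453 and 1601 at 4 h to 1135, 1222 and 1284 at 8 h, again without overlap between 0 h and 8 h. This was a 1.95-fold fall (log2 change -0.96, SE 0.0842, adjusted p = 2.22e-12). MAX 209331_s_at (-0.90) and 210734_x_at were called lower as well, and so was 208403_x_at (-1.52, adjusted p = 6.58e-06). The remaining MAX probe set, 214108_at, went the other way and was not called (0.33, adjusted p = 0.196).

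The 3 MXD4 probe sets were all called higher in these cells. Signals on 210778_s_at rose from 83.2, 95.3 and 121 (lowest, median, highest) at 0 h to 164, 178 and 191 at 8 h, so that the ranges lay apart, and the change was 1.79-fold (log2 change 0.84, SE 0.124, adjusted p = 3.67e-07). MXD4 212346_s_at rose by 0.58 (adjusted p = 0.00104), and 212347_x_at by 0.37 (adjusted p = 0.0193). The call on 212347_x_at was lost without the Ambion 8 h replicate 1 (0.31, adjusted p = 0.0636).

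MXI1 went from 1498, 1668 and 2373 (lowest, median, highest) at 0 h to 2260, 2421 and 2598 at 8 h, and MNT from 468, 683 and 773 to 425, 508 and 551, with overlap for both. MXI1 rose 1.36-fold (log2 change 0.45, SE 0.0895, adjusted p = 5.98e-05), MNT fell by 0.41 (adjusted p = 0.00197) and MLX 217909_s_at fell by 0.42 (adjusted p = 0.0241). The MNT call was lost without replicate 2 (-0.33, adjusted p = 0.0601) or 3 (-0.37, adjusted p = 0.0502), and the MLX call when any 1 of 4 Ambion arrays was left out (adjusted p of 0.0661 to 0.0855). For MLX 217909_s_at the change was -0.73 with the Ambion siRNA (adjusted p = 0.00551) and -0.10 with the Dharmacon siRNA (adjusted p = 0.732). For MXI1 it was 0.27 with Ambion (adjusted p = 0.0724) and 0.63 with Dharmacon (adjusted p = 1.7e-05).

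Whether the response to 8 h of OHT itself depended on the arm was tested as a difference of differences. It called 0 of the 19 probe sets with limma, where 0.203% of all probe sets were called, and 1 (MXD4 210778_s_at, adjusted p = 0.0496) when the fit had 12 groups, siRNA by time. For MYC the difference of the log2 changes was -0.06 with a 95% interval of -0.49 to 0.37, for MAX 209332_s_at -0.07 (-0.31 to 0.17), for MXI1 0.10 (-0.16 to 0.36) and for MNT 0.01 (-0.30 to 0.33). The members with an unadjusted p under 0.05 were 2, MXD4 210778_s_at, with a difference of 0.65 (0.30 to 1.01, adjusted p = 0.179), and MAX 208403_x_at, with -1.12 (-1.87 to -0.36, adjusted p = 0.398). The rise of MXD4 in NFYB siRNA cells and its uncalled change in control cells are therefore not shown to differ under the pooled fit.

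**Figure D3:**
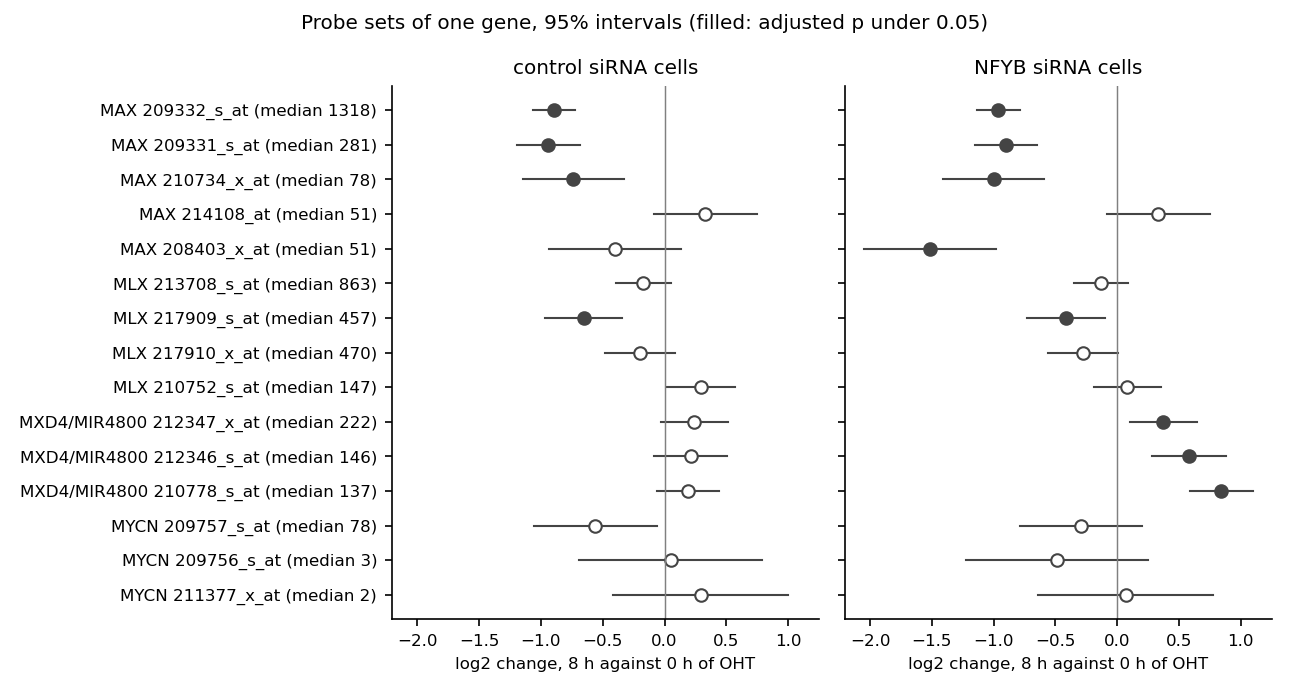
Log2 change from 0 h to 8 h of OHT with its 95% interval (horizontal axis, both panels on 1 scale) for each of the 15 probe sets of the 4 genes with several, in control siRNA cells on the left and NFYB siRNA cells on the right; labels give the median signal over the 36 arrays and filled points were called. The 3 brightest MAX probe sets lie left of 0 in both panels, whereas 1 of the 4 MLX probe sets is filled in each.

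Comparing NFYB siRNA with control siRNA at the same time, the pooled limma fit called 3 of the 19 probe sets at 0 h, 1 higher and 2 lower. There 3.58% of all probe sets were called, 1.58% higher and 2% lower. At 4 h it called 0 (2.93% of all, with 2 members at an unadjusted p under 0.05), and the methods' t-test called 0 too. At 8 h it called 1, lower (4.65% of all, 2.46% lower). The probe sets called at 0 h were 1 of MAX and 2 of MXD4, and the probe sets of 1 gene are not independent of each other.

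MAX 209332_s_at at 0 h had 1666, 1819 and 2339 in control cells against 2141, 2432 and 2554 in NFYB siRNA cells, and 4 of the 6 knockdown arrays lay above every control array. It was 1.24-fold higher (log2 difference 0.31, SE 0.0842, adjusted p = 0.0263). At 4 h and 8 h the differences were 0.27 and 0.25, not called by the pooled fit (adjusted p = 0.0785 and 0.0886). Both were called with 12 groups, siRNA by time. At 8 h all 6 knockdown arrays exceeded all 6 control arrays. The 0 h call was lost against the Sigma control alone (0.20, adjusted p = 0.179), with the Ambion siRNA alone (0.25, adjusted p = 0.295) and when any 1 of 8 arrays was left out (differences of 0.27 to 0.31, adjusted p of 0.0524 to 0.0761). With siRNA as a random block it was lost too (adjusted p = 0.0632). The other MAX probe sets ran from -0.01 to 0.34 at 0 h, none called.

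For MXD4 the calls of the pooled fit at 0 h came from its dimmer probe sets, and the brightest was not called by it. On 212346_s_at the control arrays ran from 128 over a median of 160 to 186 and the NFYB siRNA arrays from 69.9 over 106 to 130, and 5 of 6 knockdown arrays lay below every control array. The difference was 1.54-fold (log2 difference -0.62, SE 0.147, adjusted p = 0.00875). On 210778_s_at it was 1.42-fold (log2 difference -0.50, SE 0.124, adjusted p = 0.0142), with signals of 142 ± 18.7 in control cells (SD, n = 6) and of 83.2 to 121 in NFYB siRNA cells. Leaving out a replicate number, 4 arrays of this contrast, ended the call on 210778_s_at for each number (adjusted p of 0.0703 to 0.3) and on 212346_s_at for numbers 2 and 3 (adjusted p = 0.211 and 0.112). With siRNA as a random block 210778_s_at lost its call (adjusted p = 0.0698) and 212346_s_at kept it (adjusted p = 0.0408), and the methods' t-test called none of the 19 probe sets at 0 h.

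The brightest MXD4 probe set, 212347_x_at, differed by -0.41, -0.34 and -0.28 at 0, 4 and 8 h, none called by the pooled fit (adjusted p = 0.0773, 0.184 and 0.262). With 12 groups, siRNA by time, it was called lower at each of these times. Here the choice of control siRNA moved the value. Against Dharmacon alone the differences were -0.18, -0.17 and -0.02, and against Sigma alone -0.65, -0.52 and -0.55 (adjusted p = 0.00106, 0.0121 and 0.00648). On 212346_s_at at 0 h they were -0.53 against Dharmacon (adjusted p = 0.0911) and -0.72 against Sigma (adjusted p = 0.0114), and with the Ambion siRNA alone -0.48 (adjusted p = 0.15) against -0.77 with the Dharmacon siRNA (adjusted p = 0.00609). At 4 h and 8 h neither 212346_s_at (-0.15 and -0.25) nor 210778_s_at (-0.20 and 0.15) was called.

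**Figure D4:**
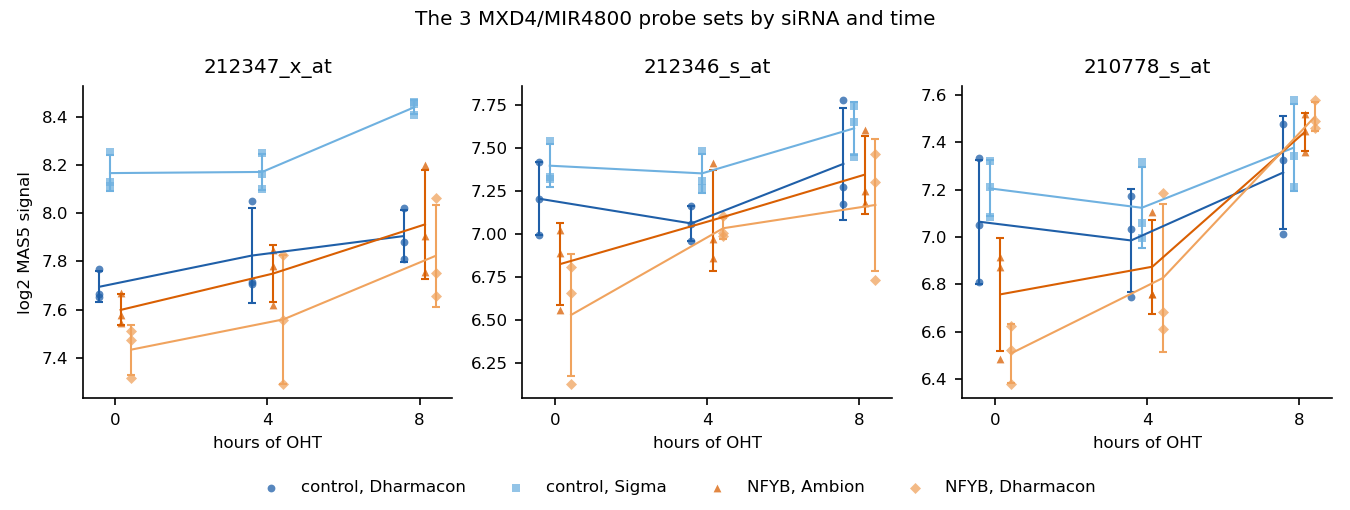
Log2 MAS5 signal (vertical axes, own scales) of the 3 probe sets annotated to MXD4 and MIR4800 against hours of OHT, for the 4 siRNAs; points are arrays, lines and bars the mean and SD of 3 replicates. On the first panel the Sigma control arrays lie above all other arrays at 0 h, and on the third the 6 NFYB siRNA arrays at 8 h (164 to 191) lie above those at 0 h (83.2 to 121).

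The 1 call of the pooled fit at 8 h was MAX 208403_x_at, the dimmest MAX probe set. Control arrays had 27.5, 45.0 and 74.7 and NFYB siRNA arrays 13.4, 19.9 and 40.0, and 4 of 6 knockdown arrays lay below all control arrays (log2 difference -1.02, SE 0.263, adjusted p = 0.0174). It was lost without any of 3 single arrays: the Dharmacon control replicate 1 (-0.87, adjusted p = 0.0663), the Dharmacon NFYB replicate 1 (-0.94, adjusted p = 0.0519) or the Dharmacon NFYB replicate 3 (-0.87, adjusted p = 0.0604). It was also lost with siRNA as a random block (adjusted p = 0.0846), with the Ambion siRNA alone (-0.92, adjusted p = 0.114) and against the Dharmacon control alone (-0.99, adjusted p = 0.0913).

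MYC, MXI1, MNT, MLX, MYCN and MXD1 were not called between the arms at any time by the pooled fit. With 12 groups, siRNA by time, MLX 213708_s_at was called at 8 h, higher in NFYB siRNA cells (log2 difference 0.17). For MYC the differences were 0.18 (interval -0.12 to 0.49), -0.002 (-0.30 to 0.30) and 0.13 (-0.18 to 0.43) at 0, 4 and 8 h. Ordered by mean signal, MYC stood at 1876 ± 589 in NFYB siRNA cells and 1604 ± 258 in control cells at 0 h, 1180 ± 211 and 1173 ± 156 at 4 h, and 857 ± 133 and 781 ± 80.8 at 8 h (SD, n = 6), so that both arms of a time were neighbours and did not differ beyond their spread.

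The spread of MYC in NFYB siRNA cells at 0 h followed the siRNA. The Ambion arrays had 1233, 1373 and 1517 and the Dharmacon arrays 2726, 2168 and 2238, without overlap, while the Dharmacon control arrays had 1716, 1910 and 1524 and the Sigma control arrays 1462, 1204 and 1807. In a comparison at each time alone that was added after the data were seen, the Dharmacon NFYB siRNA gave 1.73-fold more MYC signal than the Ambion siRNA at 0 h (log2 difference 0.79, SE 0.146, adjusted p = 0.000392, where 8.28% of all probe sets were called). The differences at 4 h and 8 h were -0.44 (adjusted p = 0.06) and 0.17 (adjusted p = 0.572). Averaged over the times, the difference of 0.17 was not called (adjusted p = 0.183). With the Dharmacon NFYB siRNA alone, MYC at 0 h was 0.58 above the pooled control siRNAs on the log2 scale (adjusted p = 0.00502).

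The siRNAs of 1 arm differed from each other in several members, also without OHT. Between the 2 control siRNAs, 9 of the 19 probe sets were called, 8 higher with Sigma and 1 lower, where 25.6% of all probe sets were called, 15.2% higher and 10.5% lower. All 4 MLX probe sets were higher with Sigma, by 0.27 to 0.33 on the log2 scale (adjusted p of 3.67e-05 to 0.0193). Of these, 210752_s_at was lost without the Sigma 8 h replicate 3 (0.23, adjusted p = 0.0569) and 217909_s_at without the Sigma 0 h replicate 1 (0.27, adjusted p = 0.0502). Without a replicate number, 217909_s_at lost its call for each number (adjusted p of 0.0527 to 0.0894), and 210752_s_at (adjusted p = 0.0946 and 0.291) and 217910_x_at (adjusted p = 0.057 and 0.0752) for numbers 1 and 3. MXD4 212347_x_at was 1.37-fold higher with Sigma (log2 difference 0.45, SE 0.0739, adjusted p = 1.34e-05). At 0 h its signals were 277, 305 and 280 with Sigma and 203, 201 and 218 with Dharmacon, and over the 3 times all 9 Sigma arrays lay above all 9 Dharmacon arrays.

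MAX 209332_s_at was 1.18-fold higher with Sigma (log2 difference 0.24, adjusted p = 0.000357), and 214108_at 1.45-fold (0.54, adjusted p = 0.00492), the latter lost without replicate 2 (adjusted p = 0.0884) or 3 (adjusted p = 0.0549). MXD1 was 1.96-fold higher (0.97, SE 0.35, adjusted p = 0.0378) between mean signals that never exceeded 4.61, and lost its call with an offset of 16 added before the logarithm (0.15, adjusted p = 0.153) and when any 1 of 9 arrays was left out. MYCN 209757_s_at was 1.45-fold lower with Sigma (log2 difference -0.54, adjusted p = 0.0152), most at 0 h, where Sigma arrays had 65.7, 68.6 and 47.7 and Dharmacon arrays 89.7, 128 and 126. This call was lost without replicate 2 (-0.52, adjusted p = 0.15) or 3 (-0.46, adjusted p = 0.167). MYC, MXI1 and MNT had differences of -0.08, -0.11 and 0.00, none called.

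Between the 2 NFYB siRNAs, 3 of the 19 probe sets were called, all lower with Dharmacon, where 17.1% of all were called and 9.75% were lower. MLX 213708_s_at was 1.26-fold lower (log2 difference -0.33, SE 0.0472, adjusted p = 3.31e-06). At 0 h its Ambion arrays had 1067, 1105 and 1089 and its Dharmacon arrays 866, 926 and 806, and over the 3 times all 9 Dharmacon arrays were below all 9 Ambion arrays. MLX 217910_x_at (-0.27, adjusted p = 0.0236) and MNT (-0.24, adjusted p = 0.0372) were the other two. The MNT call was lost when any 1 of 11 arrays was left out, and the call on 217910_x_at when any 1 of 6 was. The siRNAs of an arm differ in maker and in sequence, and these cannot be told apart.

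Genes around the network were taken from 7 lists and are described by counts for 8 h against 0 h of OHT in control cells. Over all probe sets the median was -0.10 and 49.9% were called. These include dim probe sets, whereas list genes were read on their brightest, so the shares are not alike. Over the 7 lists together, 70 of 94 genes (74.5%) were called, 28 higher and 42 lower. The counts of the single lists, here and below, are to be read beside that share. No list was tested against it. Of 35 measured genes that MYC is known to activate, 6 rose and 22 fell, with a median of -0.39; with quantile normalization the counts were 6 and 20. PES1, a factor of ribosome assembly, fell by 1.35 on the log2 scale (adjusted p = 3.67e-12). Against the majority, HK2, the first enzyme of glycolysis, rose by 2.23, ODC1, the entry enzyme of polyamine synthesis, by 1.18 and TFRC, the transferrin receptor, by 1.05 (adjusted p = 1.73e-12, 4.73e-11 and 9.3e-17).

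Of 15 measured genes that MYC is known to repress, 6 rose and 3 fell, with a median of -0.02. The cyclin-dependent kinase inhibitors CDKN1C (3.43), CDKN1B (1.75) and CDKN1A (1.63) rose, as did the stress gene NDRG1 (1.28), each with an adjusted p of 3.73e-16 to 4.46e-15 except CDKN1C at 1.02e-18. Many of these genes answer to other factors as well, and the part of MYC in their change was not tested.

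In the SIN3 corepressor that MXD and MNT dimers recruit, 4 of 11 genes rose and 6 fell. The histone-binding subunit RBBP7 rose by 0.90 and SAP30 by 0.77, while the scaffold SIN3B fell by 1.01 and the deacetylase HDAC1 by 0.50 (adjusted p of 2.91e-14 to 4.39e-09). In the list of MYC cofactors, 4 of 14 measured genes rose and 6 fell. The acetyltransferases KAT2A (-0.77) and KAT5 (-0.64), the partner ZBTB17 (-0.86) and PTTG1 (-0.59) had the lowest adjusted p, and all 4 fell. Whether PTTG1 acts with the MYC protein was not tested.

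Of 12 genes of MYC turnover, 5 rose and 3 fell. The ubiquitin ligase subunits FBXW7 (0.68) and SKP2 (1.06) and the phosphatase subunit PPP2R5A (1.74) rose, and the ubiquitin ligase TRIM32 fell by 1.55. Of 5 further network genes, MYCL (1.20, adjusted p = 8.66e-06) and MLXIP, the Mondo partner of MLX (0.71, adjusted p = 5.25e-06), rose, and MGA (-0.32) and MXD3 (-0.46) fell, although neither fall was called with quantile normalization. Of 2 measured targets of Mondo and MLX, KLF10 rose by 2.57 (adjusted p = 8.8e-24) and TXNIP had -0.31 (adjusted p = 0.388).

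**Figure D5:**
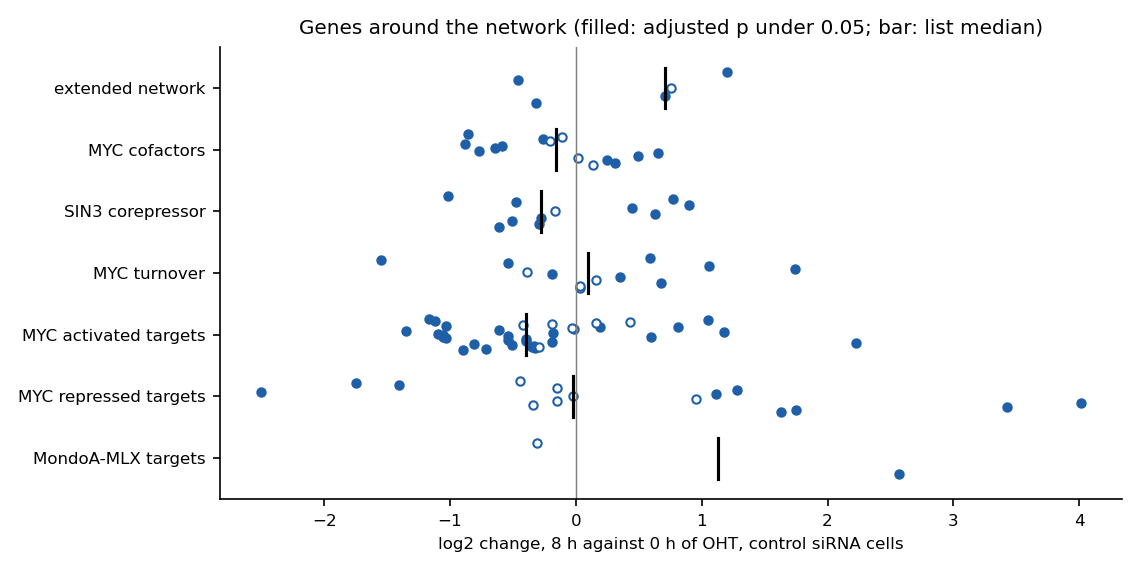
Log2 change from 0 h to 8 h of OHT in control siRNA cells (horizontal axis) for each measured gene of the 7 lists (rows; 1 point per gene, filled where called, black bar the list median). The bar of the activated MYC targets lies at -0.39 with 22 filled points to the left of 0, and the repressed targets spread to both sides.

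The dependence of the 8 h response on the arm called 0 genes in each of the 7 lists with limma, with 6 of the 94 measured genes at an unadjusted p under 0.05. NFYB siRNA against control siRNA at 8 h called 9 of the 94 genes (9.57%), 6 higher and 3 lower. Over all probe sets, dim ones included, 4.65% were called. List genes were read on their brightest probe set, so these shares are not alike and do not show an excess for the lists. When the brighter 60% of probe sets were tested alone, 1318 were called, against 1032 on all. TFRC (0.31), NME1 (0.46) and the nucleolar methyltransferase FBL (0.33) were higher among the activated targets, CLU was lower by 0.62 among the repressed targets, and AURKA, a kinase that stabilises MYCN, was lower by 0.32 (adjusted p = 0.0175). In the cofactor list PTTG1 was higher (0.30) and CDK9, the kinase of transcription elongation, lower (-0.30). In the SIN3 list SAP18 (0.28) and ING2 (0.34) were higher. None of the 5 further network genes and neither Mondo target was called there.

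The genes whose pattern was most like that of MYC over the 12 condition means, by Pearson correlation of log2 signal among 11864 probe sets, were PPP2R3A (0.977), PRPF4 (0.952), RAD54B (0.951) and AQR (0.949). For MAX they were BICRAL (0.983), LSG1 (0.981), PUS3 (0.979) and SNAPC1 (0.979) among 11862 probe sets. The 12 means share the arrays, their scaling and the common course of OHT, so these values describe likeness only.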

How the data were processed

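The authors hybridized biotin-labeled RNA of the U2OS line to 36 Affymetrix arrays. The deposited values are linear MAS5 signal intensities, computed by the authors in Expression Console (version not given in the sources used here) and scaled per array; in the file the trimmed mean, 2% off each end, is close to 500 on every array. Of the 22277 probe sets, the 62 controls were not tested, which left 22215. The labels call the replicates biological. The number of arrays, 3 per condition, limits the precision, and no detection calls came with the values.

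Signals were taken to log2 with no offset, and limma 3.58.1 (R 4.3.3) fitted them with a trend on mean signal, as 6 groups of 6 arrays (arm by time, siRNAs pooled), or as 12 groups of 3 for the comparisons between siRNAs of 1 arm, for which the times were averaged. Tests were two-sided, p was adjusted by Benjamini-Hochberg over all probe sets, and a change was called at an adjusted p under 0.05. The procedure was also run on simulated arrays, with noise drawn independently for each array and no shared difference between the siRNAs of an arm. That run cannot show how the pooled fit behaves where such differences exist. A gene was named through the platform annotation, and list genes only through probe sets with 1 gene. Because every MXD4 probe set also names MIR4800, these were kept as members although the rule for named genes asked for probe sets of 1 gene alone. From each list, up to 4 genes called with the lowest adjusted p for 8 h against 0 h of OHT in control cells, and up to 3 for knockdown at 8 h, are named. Likeness to MYC and MAX was sought in the upper 60% of probe sets by mean signal. The members, lists and tests were chosen with earlier results of these data known. Supplementary gene lists of the authors were not used. The analysis was repeated with quantile-normalized signals, with 16 added before the logarithm, on the brighter 60% of probe sets, with siRNA by time as 12 groups, with blocks for siRNA (random) or replicate number, with 1 siRNA of an arm at a time, with the methods' t-test, without single arrays or replicate numbers, and on the other probe sets of a gene. Figures were drawn with matplotlib 3.10.9.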

Additional observations from a re-analysis of the deposited data

Results flagged for a closer look

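MYCN on 209757_s_at was the 1 member with an array that stood far from its group: the Dharmacon NFYB siRNA culture at 0 h, replicate 1, had a log2 signal of 5.63, and the nearest of the other 5 NFYB siRNA arrays at 0 h had 6.39. The gap was 0.696 of the whole range of the 6 arrays. In all 48 groups of 6 arrays were looked at, over the 8 genes, and chance alone marks about 1 in 20.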

How the results depend on the processing

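For called member values, leaving out arrays left 1514 calls in place and lost 85, and other settings left 325 and lost 77, with no reversal. Of 7335 values not called, 261 had the other sign and 88 became called under another setting, none of them with the other sign. Replacing the brightest probe set kept 22 calls, lost 13 and turned 7: for MAX the OHT changes on 214108_at were 0.42 at 4 h, 0.33 at 8 h in control cells and 0.33 in NFYB siRNA cells, and the 0 h knockdown difference on 210734_x_at was -0.013; for MYCN the difference between the control siRNAs was 0.46 on 209756_s_at, 0.23 on 211377_x_at and 0.051 for the mean of all 3. Causes were not tested.

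Counts of called members moved as follows. With 12 groups (siRNA by time) they were 2 for knockdown at 4 h, 4 at 8 h, 11 for OHT 8 h against 0 h in control cells, 4 for 8 h against 4 h and 1 for the difference of responses, against 0, 1, 7, 2 and 0; of all probe sets 10.3%, 13.3%, 53.7%, 25.7% and 1.31% were then called. With siRNA as a random block (correlation 0.16) they were 1 for knockdown at 0 h, 0 at 8 h and 4 for 8 h against 4 h. With the Ambion siRNA alone knockdown gave 0 at 0 h and 0 at 8 h, and with the Dharmacon NFYB siRNA alone 5 at 0 h. With the Dharmacon control alone the counts were 1 for knockdown at 0 h, 1 at 4 h and 1 for 8 h against 4 h, and with Sigma alone 1 for knockdown at 4 h, 2 at 8 h, 3 for OHT at 4 h and 4 for 8 h against 4 h. The upper 60% of probe sets gave 0 for knockdown at 8 h, since that filter removes the MAX probe set called there. The methods' t-test on linear and log2 signals gave 0 and 0 for knockdown at 0 h, 3 and 4 between the control siRNAs and 1 and 1 between the NFYB siRNAs. At single times, a choice made after seeing the data, the control siRNAs gave 2 at 0 h, 5 at 4 h and 2 at 8 h. There 13.9%, 13.4% and 12.5% of all probe sets were called. Between the NFYB siRNAs, MYC, MLX 213708_s_at and MLX 217909_s_at were called at 0 h, where 8.28% of all were. At 4 h MXD1, MLX 213708_s_at and MLX 217910_x_at were called (7.94% of all), and at 8 h only 1, MLX 213708_s_at (8.72%).

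Leaving out single arrays or a replicate number gave 0 to 3 for knockdown at 0 h, 0 to 1 at 4 h, 0 to 1 at 8 h, 3 to 7 for OHT at 4 h, 6 to 10 at 8 h in control cells and 8 to 11 in NFYB siRNA cells, 1 to 4 for 8 h against 4 h, 0 for the difference of responses, 3 to 10 between the control siRNAs and 1 to 4 between the NFYB siRNAs. The lowest counts came without replicate 3 for OHT at 4 h and the control siRNAs, without replicate 2 for 8 h against 4 h, and without replicate 3 or Ambion 0 h replicate 2 for the NFYB siRNAs. Little pairing by replicate number was seen, although the check cannot exclude a weak one. Same-numbered arrays correlated in their deviations at -0.187 to 0.288 (median 0.00893, 29 of 198 pairs over 0.1). For other numbers the median was -0.00308, and 16 of 36 arrays were closest to their own number. With the replicate block the counts were 3, 0 and 1 for knockdown, 5, 7, 2 and 11 for OHT, 0 for the difference and 9 and 3 between siRNAs, as in the main analysis.

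Over all probe sets, the counts for OHT at 4 h and 8 h against 0 h stayed within 1.5 times of the main ones. Those for knockdown moved: 796, 651 and 1032 at 0, 4 and 8 h became 2503, 2284 and 2953 with 12 groups, 484, 432 and 621 with the random block, 1452, 1292 and 1764 with the Dharmacon NFYB siRNA alone, 1741, 1617 and 1812 with the Dharmacon control alone, 196, 163 and 455 with the t-test on linear signal and 178, 171 and 467 on log2 signal, and 222 to 295, 145 to 195 and 163 to 392 without a replicate number. With Ambion alone the 4 h and 8 h counts were 397 and 555, and with Sigma alone the 0 h count was 1332. For 8 h against 4 h, 3824 became 2315 with Dharmacon alone, 2482 with Sigma alone and 1959 to 2279 without a replicate number. For the difference of responses, 45 became 290 with 12 groups, 86 with the random block, 2 with Ambion alone, 235 with Dharmacon NFYB siRNA alone, 3 to 8 without a replicate number and 22 to 29 without any of 4 single arrays (Dharmacon NFYB at 8 h, each replicate, and Sigma at 8 h, replicate 3). The t-test gave 1200 and 1296 against 5696 between the control siRNAs and 319 and 359 against 3793 between the NFYB siRNAs; single times gave 2783 to 3093 and 1763 to 1938, and the latter gave 2270 without replicate 2. MXD1, the dim MYCN probe sets and MAX 208403_x_at are limited by low signal.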
